A study of Homo sapiens with 2 samples.

Results

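The genes of 5 transcription factors, ETV6, ETS1 and ETS2 of the ETS family and RUNX1 and RUNX2 of the RUNX family, were examined for ZMYND8 summits in 2 chromatin immunoprecipitation sequencing (ChIP-seq) libraries. One library came from mammospheres of the ZMYND8 knockout of MDA-MB-231 and the other from mammospheres of the wild-type, parental line, and the same antibody against ZMYND8 was used in both. MDA-MB-231 is an established triple-negative breast cancer line, and mammospheres are floating cultures grown here in MammoCult medium. ZMYND8 is a reader of histone marks that works with corepressor and transcription elongation complexes. The labels do not say how the knockout was made or whether it is 1 clone. A summit is the position of highest signal in a peak, and the score beside it is a −log10 p or q value that the authors deposited with each summit. Members were all summits in the hg19 spans of the 5 genes, widened by 5 kb on each side, which came to 0 of the 385 knockout summits and 64 of the 45924 parental summits. Since each genotype had a single library, replicate error cannot be given and genotypes are not tested against each other. All intervals are at 95% and cover counting error only.

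ETS factors bind DNA through a winged helix domain that recognises a GGAA core, and the family holds activators such as ETS1 and ETS2 as well as the repressor ETV6. RUNX factors bind DNA through the Runt domain, together with the partner CBFB, and ETS1 and RUNX1 are known to bind neighbouring sites cooperatively. RUNX1 and RUNX2 are each transcribed from a distal promoter at the 5′ end and from a proximal promoter well inside the longest transcription unit. In breast epithelium RUNX1 is a recurrently mutated gene, and RUNX2, the master regulator of osteoblasts, has been studied in MDA-MB-231 for its part in bone metastasis.

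The knockout list held 0 summits in each of the 5 spans, whereas the parental list held 2 in ETV6, 15 in ETS1, 4 in ETS2, 36 in RUNX1 and 7 in RUNX2. The knockout count allows a share of up to 0.779% of that list, which lies above the 0.139% (exact binomial interval 0.107 to 0.178) that the members made up of the parental list. At the parental share, a list as short as the knockout one would hold 0.537 summits in these spans, so a loss in the knockout library was not detectable at this depth of list. With no knockout summit in the widened spans, none came within 200 bp of any of the 64 parental ones, so this is not a further result. The background was 0.636% of all parental summits, and by the same floor 0 of 64 allows up to 4.69%. The same was true of the 9 member summits that scored at least 10. With a background of 6.08%, 9 summits are too few to read anything from a count of 0. The knockout summit nearest to a span lay 0.923 Mb from ETV6, 1.28 Mb from RUNX2, 4.88 Mb from ETS2, 8.65 Mb from RUNX1 and 16.2 Mb from ETS1. Chromosome 21, which carries both RUNX1 and ETS2, held 5 knockout summits in all.

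**Figure D1:**
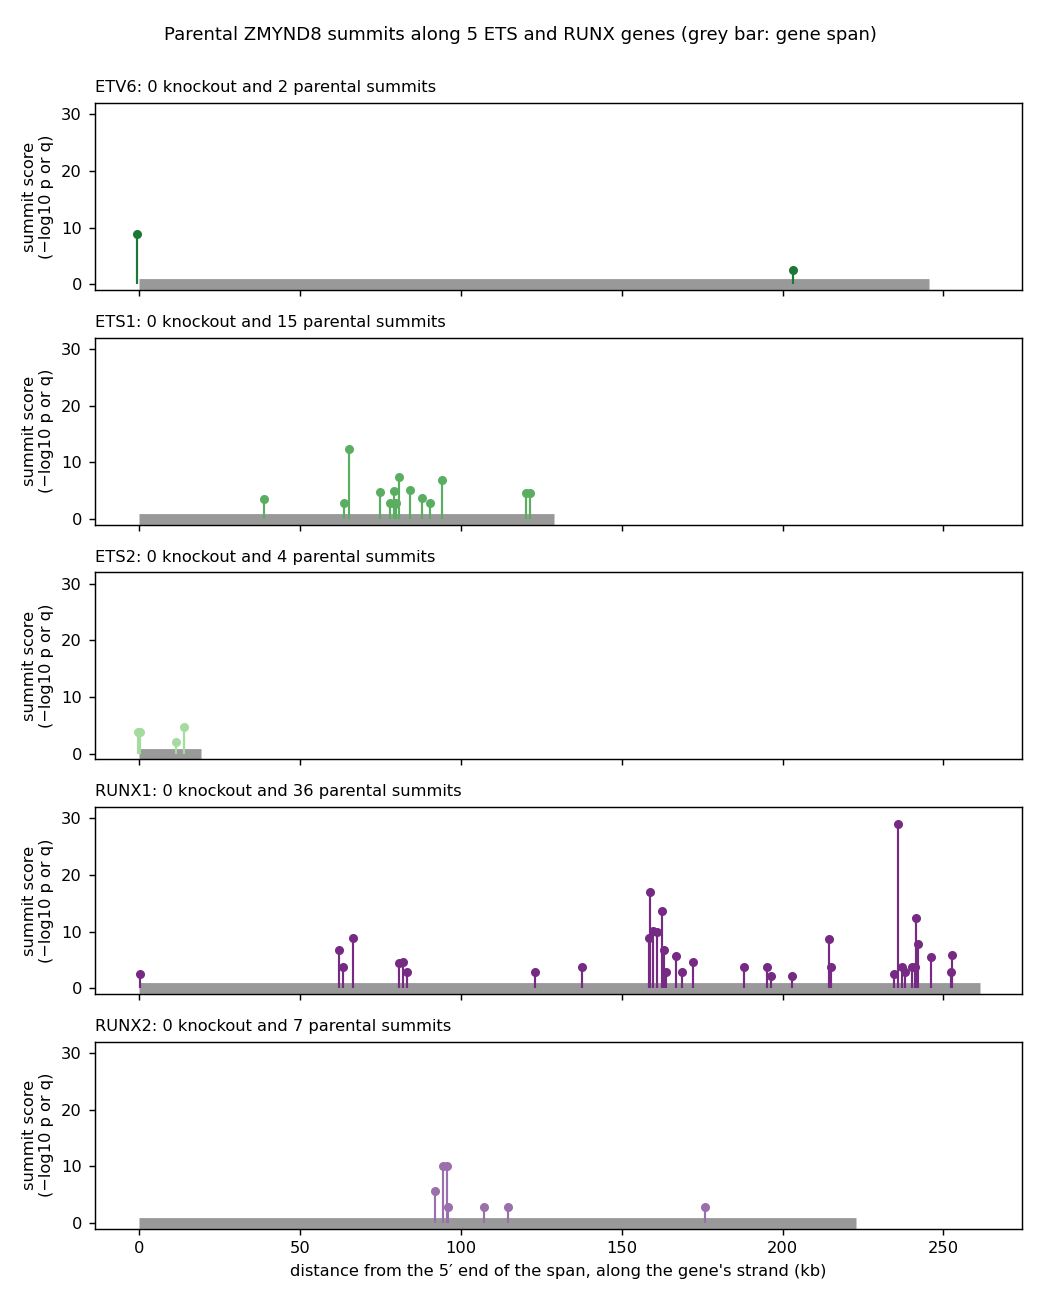
Each dot is a parental ZMYND8 summit, placed by its distance from the 5′ end of the gene span in kb along the gene's strand (horizontal axis) and by its score, a −log10 p or q value (vertical axis); the grey bar is the gene span. RUNX1 holds 36 summits and the highest score, 29.1, whereas ETV6 holds 2, and no knockout summit lies in any span.

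The 5 genes differed widely in how many parental summits they held for their length. RUNX1 had 133 summits per Mb (exact Poisson interval 92.9 to 184), ETS2 had 137 (37.4 to 352) and ETS1 had 108 (60.5 to 178). RUNX2 had 30.1 per Mb (12.1 to 62.0) and ETV6 had 7.83 (0.948 to 28.3). Over chromosomes 1 to 22 and X the parental list had 15.1 summits per Mb. The intervals of RUNX1, ETS2 and ETS1 lay above that value, while those of RUNX2 and ETV6 included it. Summits that lie close together are not independent, so these intervals are too narrow and their overlap is a description only. In the order ETS2, RUNX1, ETS1, RUNX2 and ETV6, the intervals of every pair of neighbours overlapped, those of ETS1 and RUNX2 only narrowly. Taken as 1 set, the spans held 69.0 summits per Mb (53.1 to 88.1), or 42.7 without RUNX1. In the 38 protein-coding genes of a small hg19 transcript set, the median was 12.2 summits per Mb, and 3 genes had more than 100 per Mb.

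Density in the surrounding DNA was lower for ETS1 and RUNX1. In the 100 kb on either side of the widened ETS1 span there were 5.0 summits per Mb (0.127 to 27.9), and around RUNX1 there were 20 (5.45 to 51.2). These intervals did not overlap those of the gene spans, though both are too narrow because close summits are not independent. Around ETS2 the flanks held 25.0 per Mb (8.12 to 58.3), around RUNX2 35.0 (14.1 to 72.1) and around ETV6 10 (1.21 to 36.1), and here the intervals of span and flank overlapped. The nearest protein-coding neighbours in the RefSeq gene order of GRCh38.p14 include further ETS genes, FLI1 beside ETS1 and ERG beside ETS2. Of the 29 other ETS, RUNX and partner genes on the list, including these 2, 0 were covered by the hg19 transcript set, so they were not analysed here.

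**Figure D2:**
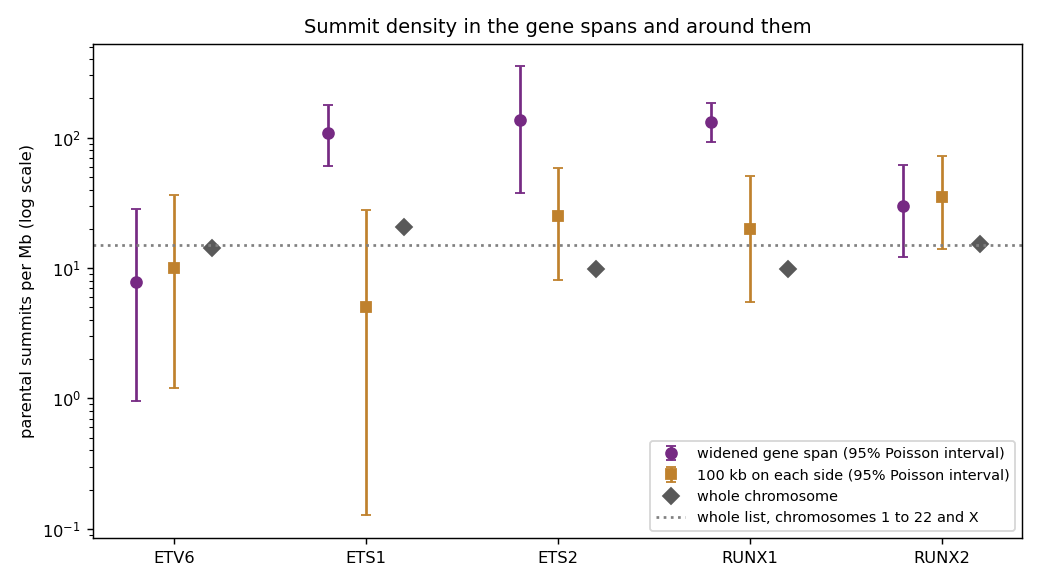
Parental summits per Mb (log scale) in the widened span of each gene, in the 100 kb on each side, over the whole chromosome and over the whole list (dotted line); bars are 95% Poisson intervals for counting error. The RUNX1 span, at 133 per Mb, stands far above chromosome 21 at 9.89 per Mb, whereas ETV6, at 7.83, is near chromosome 12 at 14.4.

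Each span was also set beside all consecutive tiles of its own length on chromosomes 1 to 22 and X. At least 36 summits, the RUNX1 count, were found in 1.31% of 11175 tiles, and in 3 of the 177 tiles of chromosome 21. The 15 summits of ETS1 were matched or passed in 2.65% of tiles, and the 4 of ETS2 in 3.25%. For RUNX2 and its 7 summits the share was 16.0%, and for ETV6 and its 2 summits it was 43.6%. Tiles include unassembled and gene-poor DNA, and 41.3% of the RUNX1-sized tiles had no summit. Among tiles with at least 1 summit, the shares were 2.22% for RUNX1, 5.86% for ETS1, 17.5% for ETS2, 28.7% for RUNX2 and 76.0% for ETV6. The densest RUNX1-sized tile held 143 summits, so RUNX1 was dense but far from the top of the list.

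**Figure D3:**
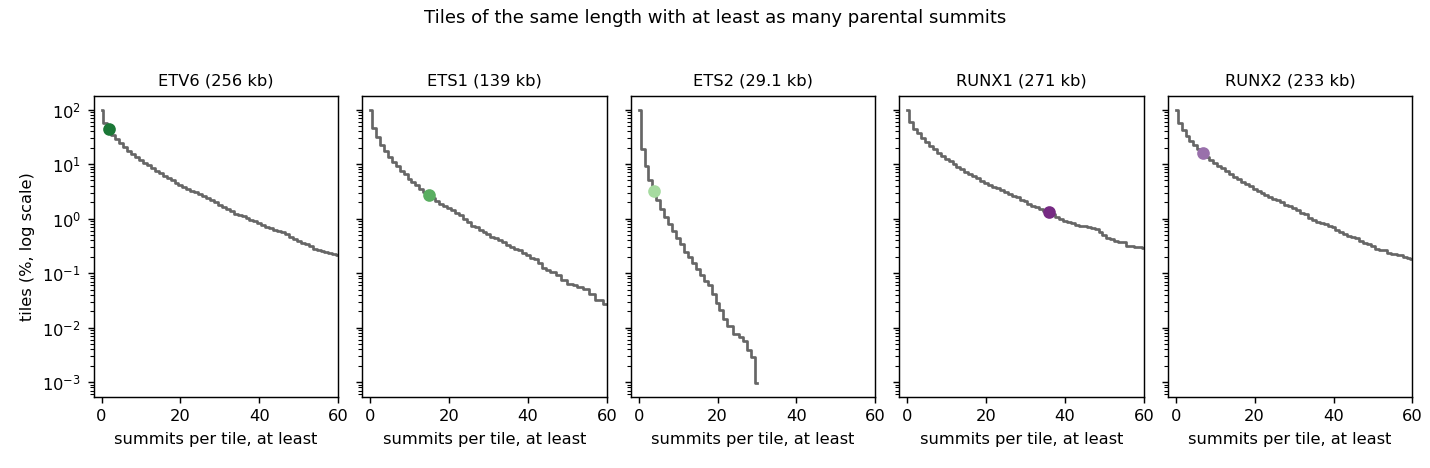
The grey line gives the percentage of tiles of the same length as each widened gene span (log scale) that hold at least the number of parental summits on the horizontal axis, drawn up to 60 summits; the dot marks the gene itself. RUNX1 lies at 1.31% of tiles and ETV6 at 43.6%.

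RUNX1, the DNA-binding subunit of core binding factor and a regulator of blood stem cells and epithelia, held 0 knockout and 36 parental summits on chromosome 21. Its span runs from 36160098 to 36421595 on the minus strand, and all 36 summits lay within the unwidened span. The widened span took up 0.564% of the length of chromosome 21, which includes unassembled DNA, and 7.56% of that chromosome's 476 parental summits. Of the 35 summits of chromosome 21 that scored at least 10, RUNX1 held 6 (17.1%). Scores in RUNX1 ranged from 2.14 to 29.1 with a median of 4.17, against a median of 3.79 for the whole list.

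The highest RUNX1 summit lay at 36185764, 236 kb downstream of the 5′ end, with a score of 29.1. Only 3 summits of chromosome 21 scored higher. In the whole parental list 94 summits scored at least as high as this one, of which 35 had a knockout summit within 200 bp and 56, the RUNX1 summit among them, had none within 1000 bp. The next highest RUNX1 summits lay at 36262765 (score 17.1), 36259102 (13.6), 36180219 (12.4) and 36261982 (10.06). All 5 of these belonged to a pair of dense runs inside the span. Whether either run lies at the proximal promoter was not determined.

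A run was defined as 3 or more parental summits in a row, each at most 5000 bp from the next. In the first large RUNX1 run, 10 summits lay between 36249305 and 36263216, a stretch of 13.9 kb that begins 158 kb and ends 172 kb downstream of the 5′ end. Their median score was 7.79, and 4 of them scored at least 10. A second large run, nearer the 3′ end, had 9 summits between 36175544 and 36187060, over 11.5 kb, with a median score of 3.79 and 2 scores of at least 10, including the highest of the gene. There were also 2 short runs of 3 summits each, from 36338266 to 36340946 and from 36355075 to 36359687, with highest scores of 4.71 and 8.87. Runs accounted for 25 of the 36 RUNX1 summits, and the median gap between neighbouring summits was 1538 bp.

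In contrast, the distal 5′ end of RUNX1 was sparsely marked. A single summit lay 76 bp downstream of it, at 36421519, with a score of 2.62, which ranked 37626 of 45924. The next summit along the gene was 61.9 kb downstream. Altogether 28 of the 36 summits lay beyond the midpoint of the span, toward the 3′ end. In RefSeq of GRCh38.p14 the genes RUNX1-AS1 and RUNX1-IT1 overlap RUNX1, and a summit in an overlap cannot be assigned to RUNX1 alone. The only RUNX1 promoter window in the RefSeq sequence table, chr21:34888650-34888949 of GRCh38.p14 on the minus strand, was 72.0% G and C. Its hg19 position was not determined, so it was not set against the summits.

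**Figure D4:**
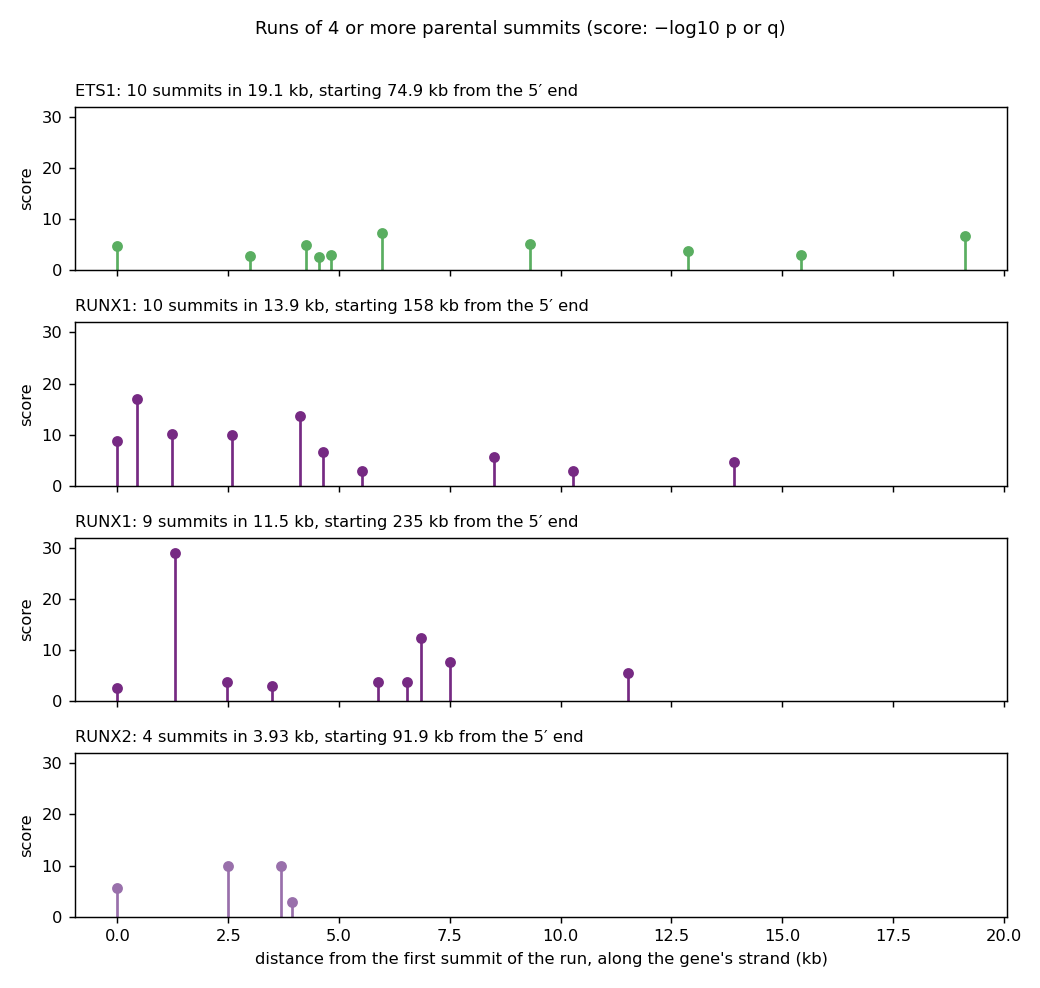
Parental summits in each run of 4 or more, placed by the distance from the first summit of the run in kb along the gene's strand (horizontal axis) and by score, a −log10 p or q value (vertical axis). The RUNX1 runs hold 10 and 9 summits with scores up to 17.1 and 29.1, whereas the ETS1 run of 10 summits reaches 7.38.

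RUNX2, which drives osteoblast differentiation, held 0 knockout and 7 parental summits between 45296054 and 45518819 of chromosome 6, on the plus strand. The distal 5′ end was bare, since the nearest summit lay 91.9 kb downstream. A run of 4 summits followed, at 45387920 (score 5.68), 45390424 (10.02), 45391608 (10.02) and 45391853 (2.93), which lay 91.9, 94.4, 95.6 and 95.8 kb from the 5′ end. The remaining 3 summits, at 45403306, 45410695 and 45471865, shared the low score of 2.93. SUPT3H and LOC124901324 overlap RUNX2 in the GRCh38.p14 RefSeq table, so the summits are located in the span without being assigned to RUNX2 alone.

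The distal and proximal RUNX2 promoters are shown because only the second has a summit at a comparable distance. Both are RefSeq windows of GRCh38.p14 on the plus strand, from 250 bases before to 50 bases after the start, the distal at chr6:45328080-45328379 and the proximal at chr6:45422025-45422324. Capitals mark the RUNX motifs TGTGGT and TGCGGT on either strand.
RUNX2 distal: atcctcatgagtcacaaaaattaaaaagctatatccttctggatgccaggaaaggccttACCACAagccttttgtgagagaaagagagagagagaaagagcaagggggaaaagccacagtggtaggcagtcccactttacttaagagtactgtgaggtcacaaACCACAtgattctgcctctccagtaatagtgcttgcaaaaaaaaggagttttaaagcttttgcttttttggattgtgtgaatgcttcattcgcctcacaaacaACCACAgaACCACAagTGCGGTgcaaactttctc
RUNX2 proximal: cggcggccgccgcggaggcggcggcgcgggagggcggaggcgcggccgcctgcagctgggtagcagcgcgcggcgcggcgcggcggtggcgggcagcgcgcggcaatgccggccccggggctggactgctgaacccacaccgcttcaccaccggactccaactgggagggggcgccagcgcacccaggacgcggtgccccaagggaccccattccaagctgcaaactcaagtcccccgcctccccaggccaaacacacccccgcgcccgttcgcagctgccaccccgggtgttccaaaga

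The RUNX2 starts in these windows are 93945 bp apart in GRCh38.p14, and the hg19 summits nearest to that distance lay 91866, 94370 and 95554 bp downstream of the hg19 5′ end. These distances come from different builds and positions were not converted. The distal window held 5 RUNX motif matches, 4 of TGTGGT and 1 of TGCGGT, with no overlap between them. At least as many matches occurred in 4 of 35116 promoter windows (0.0114%), and at least 1 match occurred in 19.6%. The proximal window held 0. The windows also differed in base composition. The distal one was 42.7% G and C with 2 CpG sites, and the proximal one was 76.0% with 39 CpG sites, against a median of 58.7% over all windows. A motif match is a description of the sequence and not evidence of binding.

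ETS1, an activator linked to invasion and to lymphoid and endothelial genes, held 0 knockout and 15 parental summits. It lies on the minus strand of chromosome 11, from 128328656 to 128457453. The summit nearest to its 5′ end lay 38.8 kb downstream, at 128418650, with a score of 3.6. The highest lay at 128392156, 65.3 kb downstream of the 5′ end, with a score of 12.4, which was the only ETS1 score of at least 10. It was followed by those at 128376610 (7.38), 128363458 (6.82), 128373273 (5.15) and 128378310 (5.04), all 4 of which belonged to 1 run. That run had 10 summits between 128363458 and 128382574, a stretch of 19.1 kb that covers 74.9 to 94.0 kb from the 5′ end, with a median score of 4.25. Beyond the midpoint of the span, toward the 3′ end, lay 13 of the 15 summits. ETS1-AS1, MIR6090 and a further pair of uncharacterised genes overlap ETS1 in the GRCh38.p14 RefSeq table. Any ETS1 start inside the span was not placed against the summits.

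ETS2, a MAP kinase responsive activator related to ETS1, is the shortest of the genes, with a span of 19.1 kb from 40177755 to 40196878 on the plus strand of chromosome 21. It held 0 knockout and 4 parental summits. A pair flanked its 5′ end, at 40177442 and 40177996, offsets of -313 and 241 bp along the gene, both with a score of 3.79. The others lay inside the gene at 40189001 (score 2.14) and 40191479 (4.71). No summit scored at least 10 and none was in a run, so ETS2 was dense for its length but held only modest scores.

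The promoter windows of ETS2 are shown because summits lay on either side of its start in hg19. RefSeq gives a pair of starts on the plus strand in GRCh38.p14, 746 bp apart, with windows at chr21:38804933-38805232 and chr21:38805679-38805978. Which of them corresponds to the hg19 5′ end was not determined. Capitals mark the ETS core GGAA, or TTCC where it is on the other strand.
ETS2 upstream: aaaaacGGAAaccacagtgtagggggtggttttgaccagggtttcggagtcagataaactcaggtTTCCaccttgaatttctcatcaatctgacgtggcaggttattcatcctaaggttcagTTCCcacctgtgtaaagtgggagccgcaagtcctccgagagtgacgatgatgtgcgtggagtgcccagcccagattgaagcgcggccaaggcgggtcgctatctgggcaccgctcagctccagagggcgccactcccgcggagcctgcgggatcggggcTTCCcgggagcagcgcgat
ETS2 downstream: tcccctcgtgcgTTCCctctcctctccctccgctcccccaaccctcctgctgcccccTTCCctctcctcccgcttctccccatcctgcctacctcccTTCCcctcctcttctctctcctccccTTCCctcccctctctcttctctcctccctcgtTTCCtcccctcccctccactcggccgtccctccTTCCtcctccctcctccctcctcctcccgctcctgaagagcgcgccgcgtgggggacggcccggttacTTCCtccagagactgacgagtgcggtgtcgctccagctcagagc

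The ETS2 windows held 4 and 7 ETS cores, and at least 7 were found in 8.29% of all windows. Nearly all promoters hold this short motif (95.5%, with a median of 3). G and C made up 58.0% of the upstream window and 67.3% of the downstream one.

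ETV6, a repressor with a pointed domain that is rearranged in leukaemias and in secretory breast carcinoma, held 0 knockout and 2 parental summits. Its span covers 246 kb of chromosome 12, from 11802788 to 12048325 on the plus strand. The higher summit lay at 11801946, 842 bp upstream of the 5′ end, with a score of 8.87. The lower one lay at 12006001 with a score of 2.59. In the hg19 transcript model with the same span, which has 8 exons, that summit was in the intron after exon 3, 360 bp before exon 4 (12006361 to 12006495). No other summit was found in the 204055 bp between them. The RefSeq promoter window of ETV6 was 69.0% G and C and held 4 ETS cores and 0 RUNX motifs; it was not placed in hg19 or set against the summits.

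At the 5′ ends of the spans, 3 of the 5 genes had a parental summit within 1 kb. They were ETV6 with 1, ETS2 with 2 and RUNX1 with 1, and the knockout list had none there. In the hg19 transcript set, 15 of 38 protein-coding genes (39.5%) had a parental summit this close to any of their starts (exact binomial interval 24.0 to 56.6%). The 5 genes were scored only at the 5′ end of the span and not at other starts, which is an unlike measure. For this reason, and with only 5 genes, their share was not compared with this background. The window at this end could be widened to 5 kb with no further gene gaining a summit. In ETS1 and RUNX2 no summit lay closer to it than 38.8 and 91.9 kb. The highest score near the 5′ end of a span was 8.87, in ETV6, whereas the highest farther inside the spans of RUNX1 and ETS1 were 29.1 and 12.4. Starts inside these spans were not placed in hg19, so whether these summits lie at a start is not known.

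Member scores as a whole resembled the list at the centre, and most of their high values lay in RUNX1. RUNX1 held 36 of the 64 members, so at an even share it would also hold most of the high values. The median of the 64 member scores was 3.79, as in the whole list, and 13 members shared the single value 2.93, which 5472 summits of the list also had. Scores of at least 10 were reached by 9 of 64 members (14.1%, 6.64 to 25.0), against 6.27% of the list. RUNX1 held 6 of these, 4 of them in its run of 10 summits. RUNX2 held 2 and ETS1 held 1, and ETS2 and ETV6 had none. Without RUNX1 the share was 10.7%. In the highest scoring 25% of the list there were 21 members, of which 14 lay in RUNX1, 3 in ETS1, 3 in RUNX2 and 1 in ETV6. Summits in a run lie close together and are not independent, so these intervals are too narrow.

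**Figure D5:**
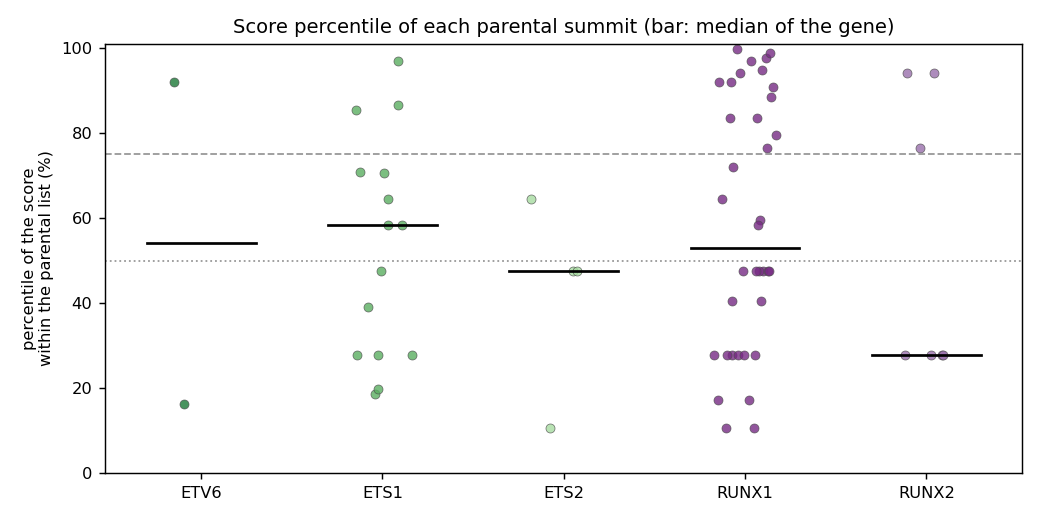
Each dot is a parental summit, placed by the percentile of its score within the parental list (vertical axis, %); black bars are medians per gene, the dotted line is 50% and the dashed line is 75%. RUNX1 spans nearly the whole range with 14 summits in the highest 25%, ETS2 has none there, and the median of RUNX2 is 27.8%.

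Runs were found in RUNX1, ETS1 and RUNX2. Runs held 39 of the 64 summits (60.9%, 47.9 to 72.9), against 48.0% of all parental summits. RUNX1 contributed 25 of them, ETS1 10 and RUNX2 4, whereas ETS2 and ETV6 had no run. A run needs at least 3 summits, so ETV6, with 2, could not hold one. The 4 summits of ETS2 lay in pairs with gaps of 554 and 2478 bp, so the lack of a run does not mean that they were scattered. Without RUNX1 the share was 14 of 28 (50%). Runs of at least 10 summits made up 334 of the 4405 runs of the list (7.58%), and both RUNX1 and ETS1 had 1 of that size. Chromosome 21 had 39 runs, 3 of them with at least 9 summits, and 2 of these 3 lay in RUNX1.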

How the data were processed

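ZMYND8 ChIP-seq was made from 1 ZMYND8 knockout and 1 parental library of MDA-MB-231 mammospheres, grouped by their labelled genotype. MACS2 2.0.10, Picard 1.127, Bowtie2 2.2.3, FastQC 0.11.2 and hg19 are listed in the submitters' processing notes, without roles or settings. Control library, threshold and depth were not given in the sources used here. The deposited list of each library gives a position and a −log10 p or q value per summit (which of these is not stated), without pooling. The score ranks summits within a list and was not compared between lists, and the length of a list depends on its depth.

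Positions are 1-based hg19. The members and lists were chosen with earlier results of these data known. For each gene the 5 highest summits, the one nearest to the 5′ end and all runs are named. Intervals are exact Poisson or Clopper-Pearson at 95%. The floor for a count of 0 is 3 counts. Chromosome lengths came from GenomeInfoDb 1.38.1. The hg19 transcript set is the example set of GenomicFeatures 1.54.1, a source outside the deposited data; its 38 protein-coding genes include ETV6 and are not known to be a random sample. Gene types, overlaps and promoter sequences came from RefSeq (GRCh38.p14). Promoter windows matched 4 of 5 genes (all but ETS1). Counting steps were tested on simulated data. Computation used Python 3.11.15, pandas 2.3.3, numpy 2.4.6, scipy 1.17.1, matplotlib 3.10.9 and R 4.3.3. Alternatives covered widening, score minimum, merging, distances, run gaps and leaving out RUNX1.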

Additional observations from a re-analysis of the deposited data

How the results depend on the processing

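No paired analysis was possible because neither genotype has a second library. A count or density was taken to hold within 1.5 times its main value, and a share inside its 95% interval. Of 31 alternatives 22 held and 9 did not. The count of 0 knockout summits in the 5 spans, and of 0 parental summits with a knockout partner, stayed at 0 under every alternative run for it, including spans widened by 20 kb and partners within 1000 bp, though a count of 0 could hardly move. The 64 parental summits fell in number to 24 with a score minimum of 5, 9 with a minimum of 10, and 28 without RUNX1. Their density of 69.0 per Mb was 9.70 with a minimum of 10, and 42.7 without RUNX1. The share of members past the score minimum was 37.5% at 5 (29.7% of the list) and 1.56% at 20 (0.647% of the list). Of the 4 summits near a 5′ end, 1 scored at least 5, that of ETV6. A higher score minimum lowers, and a lower one raises, a count or share by construction. RUNX1 held 36 of the 64 summits, so leaving it out lowers the count, and the density falls because RUNX1 was denser than the other genes pooled. Of the summits in runs, 26 remained with gaps of at most 2000 bp (40.6% of members, 33.9% of the list). Without RUNX1 14 remained (50% of the other members, 48.0% of the list). Gaps of at most 10000 bp gave 49 (76.6% of members, 58.4% of the list). Leaving out RUNX1 and changing the run gaps were chosen after seeing the data. The depth of reads is unknown, and a knockout list of 385 summits is too short to show a loss at these genes.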
